A study of Mus musculus with 16 samples.

Results

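The miR-10, miR-99 and miR-100 microRNAs (miRNAs) were followed in primary tracheal epithelial cultures from mice that lacked p73 in every tissue (KO) and from wild-type mice (WT). The 7 rows of the family in the deposited small RNA table, out of 1269 rows in all, were taken by name: mmu-miR-99a-5p, mmu-miR-99b-5p, mmu-miR-99b-3p, mmu-miR-100-5p, mmu-miR-10a-5p, mmu-miR-10a-3p and mmu-miR-10b-5p, written below without the mouse prefix mmu. The cultures were kept at an air-liquid interface, where airway basal cells make multiciliated cells once their upper surface meets air, and were harvested at days 0, 4, 7 and 14. Each genotype and day had 2 libraries, which the labels number replicates 2 and 3 and describe as independent biological replicates, so there were 8 groups and 16 libraries. The deletion is global and no treatment other than the interface was applied. No source used here gives the ages or strain of the mice. p73, a p53-family transcription factor, is needed for multiciliated cells. No row of the table measures its transcript, so the deletion could not be checked in these libraries.

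A miRNA hairpin is cut into a 5p and a 3p arm, and the loaded arm finds its target transcripts mainly through its seed, bases 2 to 8. The genes of the miR-99 and miR-100 branch each lie upstream of a let-7 gene and a miR-125 gene, and miR-100 and miR-99a are known in human cells to repress the growth kinase MTOR. The miR-10 genes lie inside the Hox gene clusters, whose transcription factors set position along the body axis, and are known to repress Hox transcripts. The mature sequences are shown because they decide which members can be told apart and which share a seed. They are given 5′ to 3′ from RefSeq on GRCm38.p6 (mm10), where 7 of 7 members matched, with the seed in capitals.
miR-99a-5p: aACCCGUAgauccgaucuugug
miR-99b-5p: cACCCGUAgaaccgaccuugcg
miR-100-5p: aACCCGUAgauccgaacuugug
miR-10a-5p: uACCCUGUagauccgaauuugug
miR-10b-5p: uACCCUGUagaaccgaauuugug
miR-99b-3p: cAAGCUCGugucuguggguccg
miR-10a-3p: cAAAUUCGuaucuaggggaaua

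The 5p arms fall into 2 seed groups. The 3 arms miR-99a-5p, miR-99b-5p and miR-100-5p share the seed ACCCGUA, and the 2 arms miR-10a-5p and miR-10b-5p share ACCCUGU. Counting positions from 1 at the 5′ end of the first-named arm, miR-99a-5p and miR-100-5p differ by U16A alone, and miR-10a-5p and miR-10b-5p by U12A alone. Between miR-99a-5p and miR-99b-5p there are 4 differences, A1C, U11A, U16C and U21C. The seed groups also resemble each other: miR-100-5p and miR-10a-5p hold an identical run of 11 bases, which begins inside the seed, at position 6 of miR-100-5p and position 7 of miR-10a-5p, and reaches past it. How reads that fit more than 1 member were counted is not stated in any source used here, so the split of reads within the near-identical pairs is uncertain.

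The 7 arms come from 5 loci on mm10, each on the plus strand, with positions counted from 1. miR-99a-5p lies at chr16:77598940-77598961 in an intron of the non-coding gene Mir99ahg, 656 bases upstream of let-7c-1 and 47272 bases upstream of miR-125b-2. The miR-99b arms lie in an intron of the protein-coding gene Spaca6, the 5p arm at chr17:17830194-17830215 and the 3p arm at chr17:17830232-17830253. The let-7e hairpin follows 94 bases downstream of the miR-99b hairpin and the miR-125a hairpin 554 bases downstream. miR-100-5p lies at chr9:41531437-41531458 in an intron of the non-coding genes 3110039I08Rik and Gm49317, with let-7a-2 placed 5211 bases and miR-125b-1 placed 50421 bases downstream. miR-10a-5p lies at chr11:96317186-96317208 and its 3p arm at chr11:96317227-96317248, in no annotated gene of the same strand other than its own, and Hoxb4 starts 992 bases downstream. miR-10b-5p lies at chr2:74726074-74726096 in introns of Hoxd3 and Hoxd4.

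The libraries held 197497 to 1777259 recovered reads. A value is a normalised read count, the reads of a small RNA divided by a size factor of its library, and the day-wise scales were joined by 1 shift per day, so levels below can be read across days. Levels of different miRNAs are compared as shares of small RNA reads without a correction for length, since mature miRNAs are close in length. Capture that differs between sequences was not corrected for, so shares and ratios of different arms describe reads and not molecules. The cultures held the miRNAs of airway epithelium: 7 of 7 listed epithelial miRNAs (the miR-200 family, miR-205 and miR-203) had values in each group, with a summed level of 16308 to 41425. Of 8 listed mesenchymal miRNAs 5 were in the table, and their summed level was 15.1 to 41.8 at days 0 to 7, with no values at day 14. Of 4 blood miRNAs 1 was in the table, with a summed level of 0 to 4.02, and the 2 endothelial miRNAs had values at day 0 only, with a summed level of 0 to 3.5. The summed level of the multiciliated list (miR-34b, miR-34c and miR-449) was 1201 to 1408 in KO cultures and 1151 to 1283 in WT cultures at day 0, and 9594 to 9899 in KO cultures and 13224 to 15206 in WT cultures at day 14. The rows of this list differed in course. The mean level of miR-449c-5p went from 4.19 at day 0 to 4733 at day 14 in KO cultures and from 7.33 to 5867 in WT cultures. That of miR-34c-5p went from 1081 to 1132 in KO cultures and from 1006 to 3527 in WT cultures. The abundant miR-92b-3p took 1.11 to 2.30% of recovered reads at day 0 and 47.3 to 55.1% at day 14.

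The family was dominated by 2 arms. miR-99b-5p and miR-10a-5p together made 98.96 to 99.48% of the summed family value in each of the 16 libraries, and the 6 members with values at every day made 3.94 to 23.1% of all miRNA values. miR-99b-5p was the most abundant miRNA in the library of KO replicate 2 at day 0, at 16.5% of miRNA values, and stood at rank 11 in KO replicate 3 at day 14, at 1.44%. miR-10a-5p held 2.30 to 7.71% and ranked between 4 and 8. By contrast miR-99a-5p made 0.104 to 0.416% and miR-100-5p 0.0299 to 0.269% of the family sum. Between the dominant arms the ratio of miR-99b-5p to miR-10a-5p averaged 1.91 ± 0.90 in KO cultures and 2.15 ± 1.91 in WT cultures at day 0, and 0.893 ± 0.440 in KO cultures and 1.14 ± 0.15 in WT cultures at day 14 (SD, n = 2 each).

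**Figure D1:**
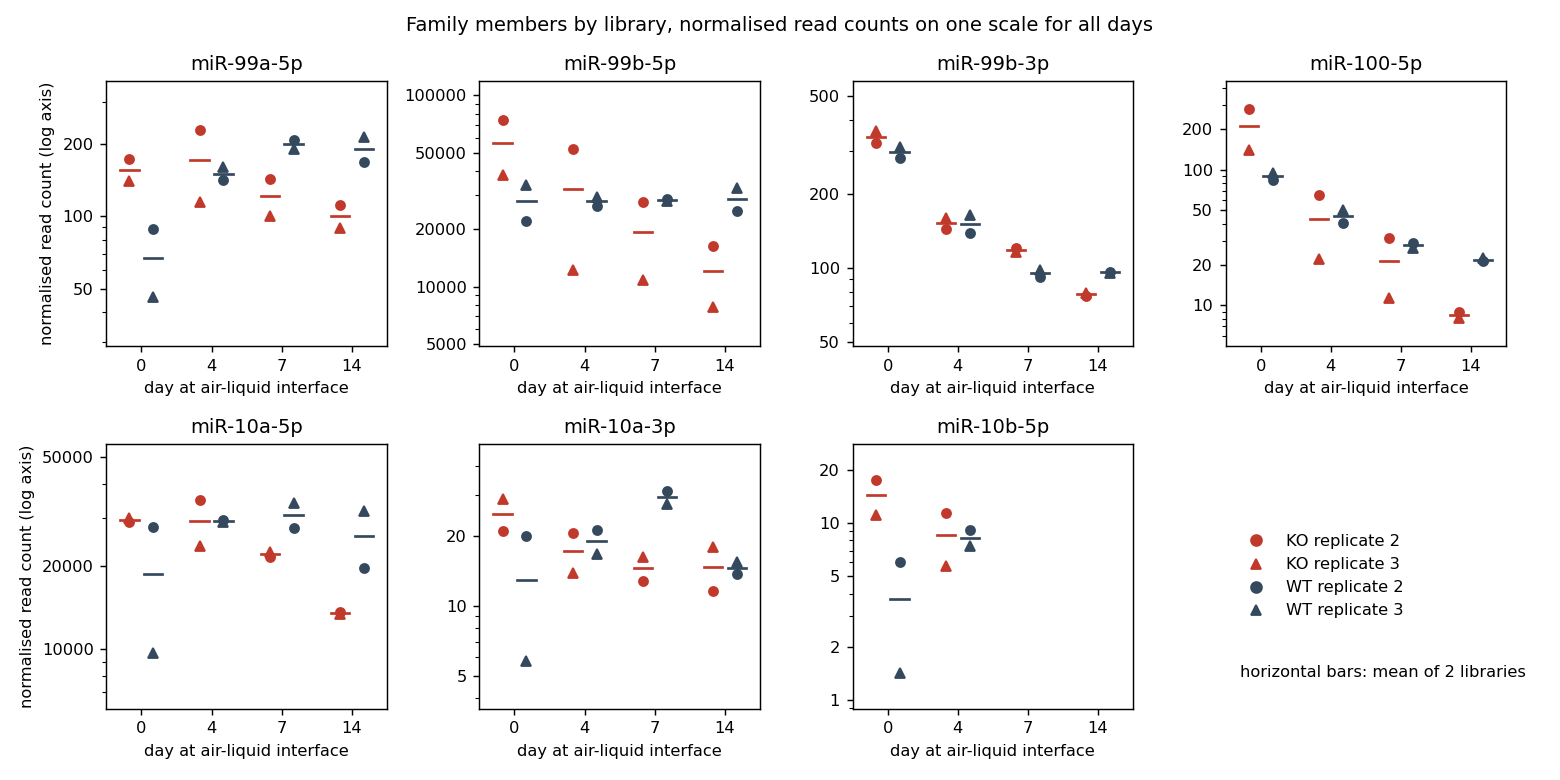
Normalised read counts (log axis, 1 scale for all days) of the 7 members against day at the air-liquid interface; each point is a library, red for KO and dark blue for WT, circles for replicate 2 and triangles for replicate 3, and bars are means of 2 libraries. In WT cultures miR-99a-5p was at 88.3 and 46.0 at day 0 and at 169 and 214 at day 14, while miR-100-5p was at 84.3 and 94.9 at day 0 and at 21.1 and 22.3 at day 14.

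The design asks how each member changed as the cultures differentiated, in KO and in WT, and whether the genotypes differed. Each day was set against day 0 within a genotype by limma on the log2 values, with Benjamini-Hochberg adjustment over every small RNA tested and a threshold of 0.05. The 3 later days share the day 0 libraries. 6 of the 7 members entered these tests, because miR-10b-5p was too low. From day 0 to day 14 in KO cultures 3 of the 6 fell (miR-100-5p, miR-99b-3p and miR-99b-5p) and none rose, where 28.7% of the 279 small RNAs tested passed. In WT cultures over the same time 1 of the 6 rose (miR-99a-5p) and 2 fell (miR-100-5p and miR-99b-3p), where 14.0% of small RNAs passed. The median log2 change of the 6 was -1.62 in KO cultures and 0.20 in WT cultures, beside 0.02 in KO cultures and -0.11 in WT cultures over the 279. At day 7, 2 of the 6 passed in KO cultures with a background of 10.1%, and 2 of the 6 in WT cultures with a background of 7.41%. At day 4, 2 of the 6 passed in KO cultures with a background of 3.53%, and 0 of the 6 in WT cultures with a background of 2.56%. In bulk cultures, fewer cells of a type and less RNA per cell cannot be told apart.

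miR-99a-5p, from the chromosome 16 cluster, was the member that rose in WT cultures. In KO libraries of replicates 2 and 3 its level was 173 and 140.1 at day 0, 229.6 and 115 at day 4, 143 and 101 at day 7, and 112 and 89.3 at day 14. In WT libraries it was 88.3 and 46.0 at day 0, 141 and 160.3 at day 4, 209 and 191 at day 7, and 169 and 214 at day 14. Each later WT library lay above both WT libraries of day 0, and the KO libraries of days 7 and 14 overlapped with those of day 0 only through replicate 2 at day 7. The log2 change to day 14 was -0.64 (SE 0.37, adjusted p = 0.223, limma) in KO cultures and 1.56 (SE 0.37, adjusted p = 0.0127) in WT cultures. At day 7 the WT change was 1.62 (adjusted p = 0.0159, limma), and at day 4 it was 1.22 (adjusted p = 0.0975; 0.0403 with replicate number as a block).

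The call of the WT rise of miR-99a-5p was lost under several settings. Without WT replicate 3 of day 0 the log2 change to day 14 was 1.10 (adjusted p = 0.0854, limma), and without WT replicate 3 of day 14 it was 1.39 (adjusted p = 0.125). At day 7 the call was lost without WT replicate 3 of day 0, WT replicate 2 of day 7 or WT replicate 3 of day 7 (adjusted p = 0.104, 0.116 and 0.0685, limma). With only the libraries of the groups compared in the fit, neither the change to day 14 nor that to day 7 passed (adjusted p = 0.102 and 0.0923, limma), the log2 changes being the same. When values were scaled to library totals, which moved the median change of all small RNAs to -1.09, the change to day 14 was 0.58 and that to day 7 was 0.89 (adjusted p = 0.189 and 0.0649, limma). Over the 8 groups miR-99a-5p was highest at WT day 7 (199.8 ± 13) and lowest at WT day 0 (67.2 ± 29.9), and the gap between KO day 14 (101 ± 16) and WT day 0 was the only step between neighbours larger than both SDs.

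miR-100-5p, which differs from miR-99a-5p at a single base and lies in the chromosome 9 cluster, fell in both genotypes. In KO libraries its level was 280.2 and 138 at day 0, 64.5 and 21.8 at day 4, 31.5 and 11.3 at day 7, and 9.0 and 8.03 at day 14. The WT libraries stood at 84.3 and 94.9 at day 0, 40.4 and 50.3 at day 4, 28.8 and 26.5 at day 7, and 21.1 and 22.3 at day 14. Both genotypes stepped down at each harvest, and the KO libraries were the highest at day 0 and the lowest at day 14. The KO values at day 14 rest on 7 and 9 reads (exact 95% Poisson intervals 2.81 to 14.4 and 4.12 to 17.1, counting error only), and the row passed the filter on low values at that day through its WT libraries.

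In KO cultures the log2 change of miR-100-5p from day 0 was -2.35 at day 4, -3.33 at day 7 and -4.39 at day 14 (adjusted p = 0.0151, 0.00079 and 2.78e-05, limma). In WT cultures it was -0.97, -1.68 and -2.0 at the same days (adjusted p = 0.448, 0.0611 and 0.0153, limma). The WT change at day 7 passed in 4 of 11 alternatives. These were replicate number as a block (adjusted p = 0.00674), library totals (0.00266), totals without miR-92b-3p (0.0398) and a pseudocount of 5 (0.0436, limma). Library totals moved the median of all small RNAs to -0.86 there. The WT change at day 14 was between -2.08 and -1.92 when any 1 library was left out, but did not pass without WT replicate 3 of day 0, WT replicate 2 of day 14 or WT replicate 3 of day 14 (adjusted p = 0.0665, 0.0921 and 0.105, limma). The KO change at day 4 lost its call without KO replicate 2 of day 0 or KO replicate 3 of day 4 (adjusted p = 0.151 and 0.177), with only the libraries compared (adjusted p = 0.153) and in edgeR (adjusted p = 0.0734), and the KO changes at days 7 and 14 kept theirs. In order of level the groups ran from KO day 0 (209 ± 100.4) and WT day 0 (89.6 ± 7.5) to KO day 14 (8.52 ± 0.68); of the neighbours in that order, WT day 4 and KO day 4, KO day 4 and WT day 7, WT day 14 and KO day 7, and KO day 7 and KO day 14 did not differ by more than both SDs.

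Because a ratio within a library does not depend on scaling, the pair was also set side by side there. The ratio of miR-99a-5p to miR-100-5p was 0.617 and 1.01 at day 0, 3.56 and 5.26 at day 4, 4.54 and 8.91 at day 7, and 12.4 and 11.1 at day 14 in KO libraries. In WT libraries it was 1.05 and 0.485 at day 0, 3.5 and 3.19 at day 4, 7.25 and 7.19 at day 7, and 8.0 and 9.62 at day 14. In both genotypes each library of day 4 lay above both of day 0, and each library of day 14 above both of day 7. At 2 libraries a group no exact test of a ratio can pass 0.05, so these ratios are given as a description.

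**Figure D2:**
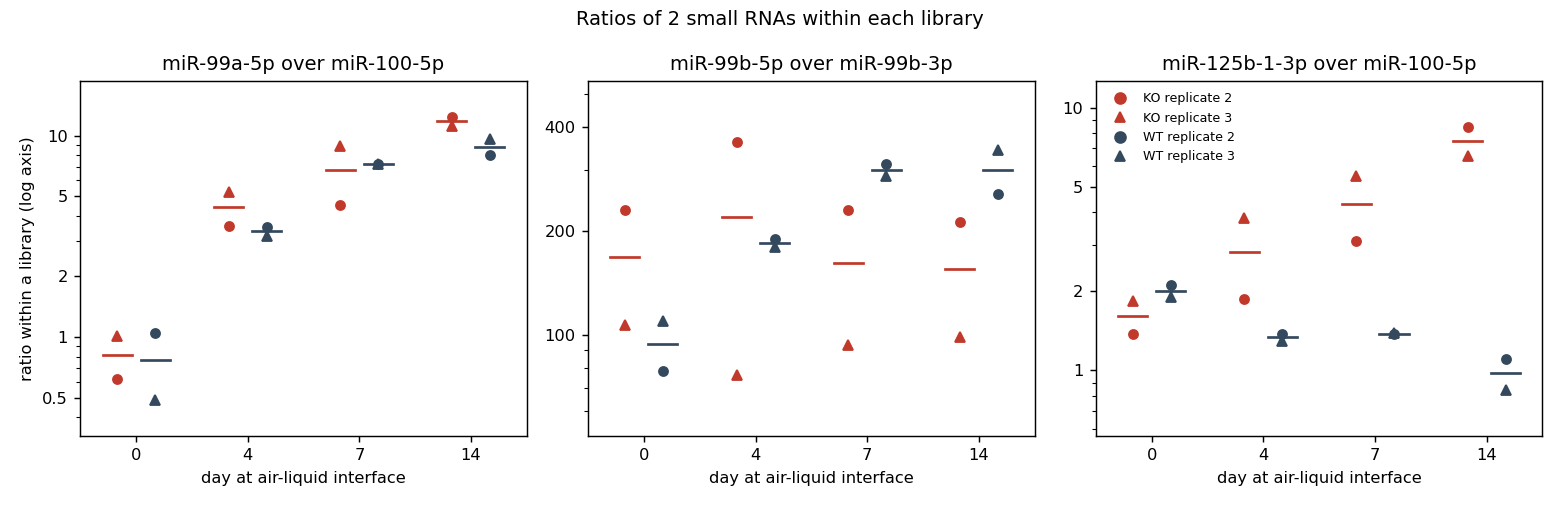
Ratios of 2 small RNAs within each library (log axis) against day at the air-liquid interface; points are libraries (red KO, dark blue WT, circles replicate 2, triangles replicate 3) and bars are means of 2 libraries. The ratio of miR-99a-5p to miR-100-5p was 12.4 and 11.1 in KO and 8.0 and 9.62 in WT libraries at day 14, and that of miR-125b-1-3p to miR-100-5p was 8.43 and 6.56 in KO against 1.10 and 0.846 in WT libraries.

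miR-99b-5p, 1 of the 2 dominant arms, fell in KO cultures. Its level in KO libraries was 74131 and 38275 at day 0, 52417 and 12179.5 at day 4, 27726 and 10837 at day 7, and 16352 and 7822 at day 14. The WT libraries stood at 22095.5 and 33914.5 at day 0, 26384 and 29511 at day 4, 28835 and 28176.5 at day 7, and 24733 and 32840.5 at day 14. The WT libraries stayed within the range of day 0 throughout, and both KO libraries of day 14 lay below every other library of the member except KO replicate 3 at days 4 and 7. In KO cultures the log2 change at day 7 was -1.62 (adjusted p = 0.11, limma). It passed with the replicate block (adjusted p = 0.00271, limma) and under library totals (0.0279). At day 14 the KO change was -2.24 (SE 0.60, adjusted p = 0.0125, limma). In WT cultures the change to day 14 was 0.06 (95% interval -1.23 to 1.34, adjusted p = 0.945, limma), and -0.94 (adjusted p = 0.186) when values were scaled to library totals. Library totals moved the median of all small RNAs to -0.43 at day 7 in KO cultures and -1.09 at day 14 in WT cultures.

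KO replicate 3 lay below KO replicate 2 for miR-99b-5p at every day, by log2 -0.95, -2.11, -1.36 and -1.06 at days 0, 4, 7 and 14. The KO change to day 14 was -1.76 without KO replicate 2 of day 0 and -1.70 without KO replicate 3 of day 14, and neither passed (adjusted p = 0.109 and 0.142, limma). None of the 8 groups differed from its neighbour in the order of levels by more than both SDs, with KO day 0 highest (56203 ± 25354) and KO day 14 lowest (12087 ± 6032). The KO libraries of replicate 3 were also lower for miR-100-5p, by log2 -1.01, -1.52, -1.42 and -0.15 at the same days. They were lower for miR-99a-5p as well, by log2 -0.30, -0.99, -0.50 and -0.32. For miR-10a-5p the difference was 0.04, -0.56, 0.06 and -0.01 at the 4 days, for miR-10a-3p 0.43, -0.54, 0.32 and 0.59, and for miR-99b-3p 0.16, 0.14, -0.05 and 0.04.

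miR-99b-3p, the opposite arm of the same hairpin, fell in both genotypes with little spread between libraries. In KO libraries its level was 323 and 360.0 at day 0, 145 and 159.7 at day 4, 121 and 116 at day 7, and 77.2 and 79.5 at day 14. In WT libraries it was 281 and 311 at day 0, 139 and 164 at day 4, 92.5 and 97.9 at day 7, and 96.5 and 96.0 at day 14. Every later library lay below every library of day 0, and at day 14 both KO libraries lay below both WT libraries.

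In KO cultures the log2 change of miR-99b-3p was -1.16, -1.52 and -2.11 at days 4, 7 and 14 (adjusted p = 0.015, 0.00103 and 2.78e-05, limma). In WT cultures it was -0.96, -1.63 and -1.61 (adjusted p = 0.053, 0.000368 and 0.000303, limma). The WT change at day 4 also passed with the replicate block (adjusted p = 0.0403, limma) and under library totals (0.00311). The calls at days 7 and 14 held without any 1 library, though the WT call at day 7 was lost with only the libraries compared (adjusted p = 0.0565). The KO call at day 4 was lost without any 1 of its 4 libraries (adjusted p = 0.0523 to 0.139, limma), with only the libraries compared (adjusted p = 0.203), under totals without miR-92b-3p (0.116), with factors from miRNA rows (0.11), in edgeR (0.256) and in DESeq2 (0.0962). The groups ran from KO day 0 (341 ± 26) and WT day 0 (296 ± 21) down to KO day 14 (78.3 ± 1.6). The gaps between KO day 4 and WT day 4 and between WT day 14 and WT day 7 did not exceed both SDs.

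The arms of the miR-99b hairpin were also compared within each library, as a description. The ratio of miR-99b-5p to miR-99b-3p was 229.5 and 106 at day 0, 363 and 76.3 at day 4, 229.4 and 93.1 at day 7, and 212 and 98.4 at day 14 in KO libraries. WT libraries stood at 78.6 and 109 at day 0, 189 and 180.0 at day 4, 312 and 288 at day 7, and 256 and 342 at day 14. The KO libraries of days 0 and 14 overlapped, whereas both WT libraries of day 14 lay above both of day 0.

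miR-10a-5p, from the Hoxb cluster, was the other abundant arm. In KO libraries its level was 29086 and 30000.2 at day 0, 34889 and 23719 at day 4, 21632.5 and 22598 at day 7, and 13580.3 and 13450 at day 14. In WT libraries it was 27810.2 and 9692 at day 0, 29456 and 28887 at day 4, 27549 and 33844.5 at day 7, and 19751 and 31788 at day 14. Both KO libraries of day 14 were lower than both of each earlier KO day, and WT replicate 3 of day 0 was the lowest of the 16.

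The log2 change of miR-10a-5p to day 14 was -1.13 in KO cultures (SE 0.41, adjusted p = 0.0502, limma) and 0.61 in WT cultures (SE 0.41, adjusted p = 0.342). The KO change passed in 4 of 11 alternatives. These were the replicate block (adjusted p = 0.0396), library totals (0.00914), only the libraries compared (0.00231) and no filter on low values (0.0497, limma). The WT value turned on the day 0 pair: it was 1.37 without WT replicate 2 of day 0 (adjusted p = 0.0174, limma) and -0.15 without WT replicate 3 of day 0 (adjusted p = 0.782), and under library totals it was -0.39 (adjusted p = 0.444). Library totals moved the median change of all small RNAs to day 14 to -0.35 in KO cultures and -1.09 in WT cultures. None of the 8 group means of miR-10a-5p differed from its neighbour by more than both SDs, from WT day 7 (30697 ± 4452) to KO day 14 (13515 ± 92).

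miR-10a-3p was rare, at 4 to 52 reads a library. In KO libraries its level was 21 and 28.8 at day 0, 20.6 and 13.8 at day 4, 12.8 and 16.2 at day 7, and 11.6 and 17.9 at day 14. WT libraries stood at 20.1 and 5.75 at day 0, 21.2 and 16.8 at day 4, 31.2 and 27.5 at day 7, and 13.7 and 15.4 at day 14. WT replicate 3 of day 0 was again the lowest library, and WT day 7 the highest group (29.4 ± 2.6). Only the gap between KO day 0 (24.9 ± 5.5) and WT day 4 (18.99 ± 3.14) exceeded both SDs among neighbours in the order of levels. Its log2 change to day 14 was -0.75 in KO cultures and 0.35 in WT cultures (adjusted p = 0.312 and 0.679, limma). The WT change turned to -0.46 without WT replicate 3 of day 0 and to -0.55 under library totals (adjusted p = 0.602 and 0.445, limma). Library totals moved the median WT change of all small RNAs to -1.09. The ratio of miR-10a-5p to miR-10a-3p averaged 963 ± 297 in KO cultures and 1753 ± 434 in WT cultures at day 14.

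miR-10b-5p, the Hoxd paralog of miR-10a-5p, was near the limit of detection. It had 25 and 12 reads in KO libraries and 3 and 1 reads in WT libraries at day 0, and 16 and 5 reads in KO libraries and 9 and 4 reads in WT libraries at day 4. Its mean level was 14.3 ± 4.5 in KO cultures and 3.73 ± 3.24 in WT cultures at day 0, and 8.54 ± 3.95 in KO cultures and 8.27 ± 1.15 in WT cultures at day 4. The row has no values at days 7 and 14 and did not pass the filter on low values, which asked for 2 of the 4 libraries of a day to reach a deposited value of 10, since at days 0 and 4 KO replicate 2 alone reached 10.

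KO and WT were then compared at each day. No member passed at any day or averaged over days, where 0, 0.294, 0.623 and 3.62% of small RNAs passed at days 0, 4, 7 and 14 and 2.57% on average. At day 0 the KO level was the higher for each of the 6 members: the log2 difference was 1.27 for miR-99a-5p, 1.13 for miR-100-5p, 1.09 for miR-10a-3p, 0.96 for miR-99b-5p, 0.85 for miR-10a-5p and 0.21 for miR-99b-3p (adjusted p = 0.36 to 0.815, limma). For each of the 6 both KO libraries of day 0 lay above both WT libraries. At day 4 the differences were between -0.25 and 0.11 (adjusted p = 0.997 for each member, limma). Over the alternatives, leaving out a library among them, the sign turned: the difference ran between -1.20 and 0.91 for miR-99b-5p, between -1.01 and 0.51 for miR-100-5p and between -0.39 and 0.61 for miR-99a-5p.

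At day 7 the log2 difference of KO over WT was -0.99 for miR-10a-3p, -0.73 for miR-99a-5p, -0.72 for miR-99b-5p, -0.53 for miR-100-5p and -0.47 for miR-10a-5p, and 0.32 for miR-99b-3p (adjusted p = 0.755 to 0.868, limma). Without KO replicate 3 of day 7 that of miR-100-5p turned to 0.18. At day 14 the KO level was the lower for 5 of the 6 members, with a log2 difference of -1.33 for miR-99b-5p, -1.26 for miR-100-5p, -0.92 for miR-99a-5p, -0.89 for miR-10a-5p and -0.29 for miR-99b-3p (adjusted p = 0.199 to 0.549, limma). For miR-10a-3p it was -0.01 (adjusted p = 0.986, limma), with mean levels of 14.7 in KO and 14.5 in WT cultures. Under library totals the day 14 differences were 0.07 for miR-99b-3p and 0.34 for miR-10a-3p, where the median of all small RNAs was 0.35. Under totals without miR-92b-3p miR-99b-3p was at 0.01 at day 14 and -0.05 at day 0. The medians of all small RNAs were 0.29 and -0.18 there.

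Which members passed at day 14 depended on the estimate of spread. With only the 4 libraries of day 14 in the fit, miR-99b-5p, miR-99a-5p and miR-10a-5p were lower in KO cultures (adjusted p = 0.0273, 0.0343 and 0.0373, limma). They were among 45 of the 304 small RNAs that passed in that setting. The authors' deposited table had 2 of the 6 members lower in KO cultures at day 14, miR-99b-5p with a log2 fold change of -1.21 (adjusted p = 0.00179) and miR-10a-5p with -0.91 (adjusted p = 0.00684), where 8.41% of the rows with a value passed. The authors' deposited table gave -0.88 for miR-99a-5p (adjusted p = 0.08) and -1.06 for miR-100-5p (adjusted p = 0.449) at that day. In the main fit 3 of 6 tested multiciliated miRNAs were lower in KO cultures at day 14, where 3.62% of all small RNAs passed. Their part in the family's values was not tested. Averaged over the 4 days the log2 difference was between -0.31 and 0.06 for the 6 members. Over the alternatives the day 0 difference ran between 0.81 and 1.73 for miR-99a-5p and between 0.09 and 1.61 for miR-10a-5p. The highest of each came without WT replicate 2 of day 0.

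**Figure D3:**
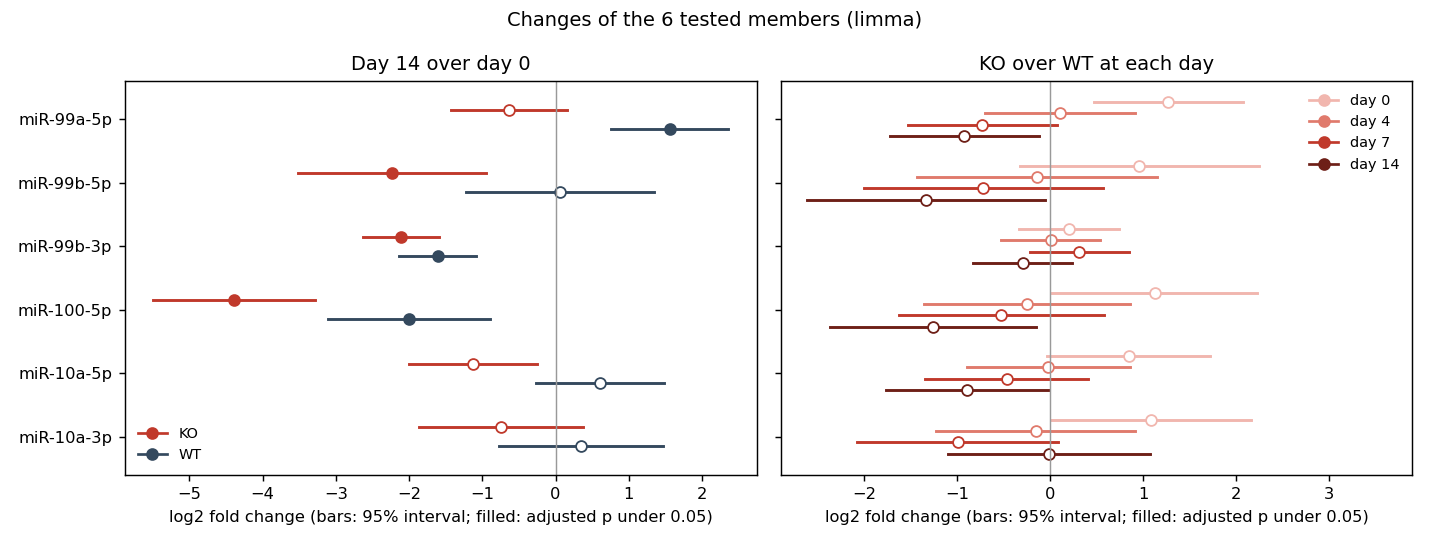
Log2 fold changes of the 6 tested members with 95% intervals, at day 14 over day 0 (left; KO red, WT dark blue) and for KO over WT at each day (right; light to dark red for days 0 to 14); filled points have an adjusted p under 0.05. On the left miR-99a-5p is at -0.64 in KO and 1.56 in WT; on the right no point is filled and the values for miR-99b-5p run from 0.96 at day 0 to -1.33 at day 14.

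The difference between the KO and WT time courses was tested as the interaction of genotype with day. At day 14 it was -2.39 for miR-100-5p, -2.29 for miR-99b-5p, -2.19 for miR-99a-5p, -1.74 for miR-10a-5p, -1.10 for miR-10a-3p and -0.50 for miR-99b-3p on the log2 scale, that is, each member ended lower relative to day 0 in KO cultures. None passed (adjusted p = 0.0853 for miR-99a-5p and 0.15 to 0.518 for the others, limma), and 0% of the 279 small RNAs passed, with 51 at an unadjusted p under 0.05. The median of the 6 members was -1.97, beside -0.02 over the 279. With the replicate block, fitted within genotype, 3 members passed: miR-99a-5p (adjusted p = 0.016), miR-99b-5p (0.016) and miR-100-5p (0.0184), among 14 of the 279 small RNAs. miR-10a-5p did not (adjusted p = 0.106, limma). The value for miR-99b-3p was 0.11 under library totals and 0.05 under totals without miR-92b-3p. These scalings moved the median interaction of the 279 small RNAs to 0.57 and 0.52.

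At day 7 the interaction was -2.08 for miR-10a-3p, -2.0 for miR-99a-5p, -1.68 for miR-99b-5p, -1.65 for miR-100-5p and -1.31 for miR-10a-5p, and 0.11 for miR-99b-3p (adjusted p = 0.29 to 0.897, limma), with 0% passing and 15 at an unadjusted p under 0.05. At day 4 it was between -1.38 and -0.20 (adjusted p = 0.932 to 0.94, limma), with 0% passing and 4 at an unadjusted p under 0.05. Under library totals miR-99b-3p was at 0.19 at day 4, where the median of all small RNAs was 0.36. The interaction values share the day 0 libraries, in which WT replicate 3 was low for miR-10a-5p and miR-10a-3p. Over the alternatives, leaving out a library among them, the day 7 value ran between -2.89 and -1.27 for miR-10a-3p. It ran between -2.46 and -1.54 for miR-99a-5p and between -2.07 and -0.55 for miR-10a-5p. At day 14 it ran between -2.50 and -0.98 for miR-10a-5p and between -2.655 and -1.60 for miR-99a-5p. The lowest of each came without WT replicate 2 of day 0. With all 16 libraries fitted, 0 of 6 members, 0 of 4 tested multiciliated miRNAs and 0 of 7 epithelial ones passed in the interaction at day 14. The median interaction was -1.97 for the members, -1.86 for the multiciliated and -0.70 for the epithelial list. The part of these cell types in the family's differences was not tested.

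The cluster partners were set beside their members from day 0 to day 14, where 28.7% of the 279 small RNAs passed in KO cultures and 14.0% in WT cultures. In the chromosome 16 cluster 0 of 3 tested partners of miR-99a-5p passed in either genotype. The log2 change was 0.63 in KO and 0.09 in WT cultures for let-7c-5p, -1.13 in KO and 1.24 in WT cultures for miR-125b-5p, and -0.26 in KO and 0.54 in WT cultures for miR-125b-2-3p (adjusted p = 0.212 to 0.886, limma). The ratio of miR-99a-5p to let-7c-5p averaged 1.75 ± 0.21 in KO and 0.502 ± 0.294 in WT cultures at day 0, and 0.722 ± 0.097 in KO and 1.28 ± 0.17 in WT cultures at day 14. miR-125b-5p and let-7c-5p each arise from more than 1 locus and have a single row. How reads that fit more than 1 locus were counted is not stated in any source used here.

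In the chromosome 17 cluster 0 of 3 tested partners of miR-99b passed in KO cultures, with the background of 28.7%, and 2 of 3 fell in WT cultures, with that of 14.0%. let-7e-5p changed by -0.73 in KO cultures (adjusted p = 0.0978, limma) and fell by 1.19 in WT cultures (adjusted p = 0.0175). miR-125a-3p changed by -0.60 in KO cultures (adjusted p = 0.212) and fell by 1.25 in WT cultures (adjusted p = 0.0227). The abundant miR-125a-5p was at -0.80 in KO and 0.03 in WT cultures (adjusted p = 0.162 and 0.957, limma). The ratio of miR-99b-5p to miR-125a-5p was 1.44 and 0.831 in KO and 0.614 and 0.627 in WT libraries at day 0, and 0.485 and 0.336 in KO and 0.563 and 0.712 in WT libraries at day 14. The KO ratio lay above both WT libraries at day 0 and below both at day 14.

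In the chromosome 9 cluster 1 of 3 tested partners of miR-100-5p fell in each genotype, near the 28.7% of all small RNAs that passed in KO cultures and beside 14.0% in WT cultures. It was miR-125b-1-3p, the 3p arm made only from this locus. Its level in KO libraries was 385 and 255 at day 0, 120.5 and 82.7 at day 4, 97.9 and 62.0 at day 7, and 75.9 and 52.7 at day 14. In WT libraries it was 179 and 181 at day 0, 55.5 and 65.2 at day 4, 39.6 and 36.7 at day 7, and 23.3 and 18.9 at day 14. The KO libraries lay above the WT libraries at every day. Its log2 change to day 14 was -2.29 in KO cultures (adjusted p = 0.0002, limma) and -3.04 in WT cultures (adjusted p = 1.06e-05), and at day 14 it was higher in KO cultures by 1.55 (adjusted p = 0.027). The authors' deposited table gave 1.41 for miR-125b-1-3p at day 14 and did not pass it (adjusted p = 0.0546). Its value in WT replicate 3 of day 14 rests on 11 reads. From day 0 to day 14 let-7a-5p did not pass (0.45 in KO and 0.79 in WT cultures, adjusted p = 0.578 and 0.352, limma). Thus the ratio of miR-125b-1-3p to miR-100-5p was 1.37 and 1.85 in KO and 2.12 and 1.91 in WT libraries at day 0, and 8.43 and 6.56 in KO and 1.10 and 0.846 in WT libraries at day 14.

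**Figure D4:**
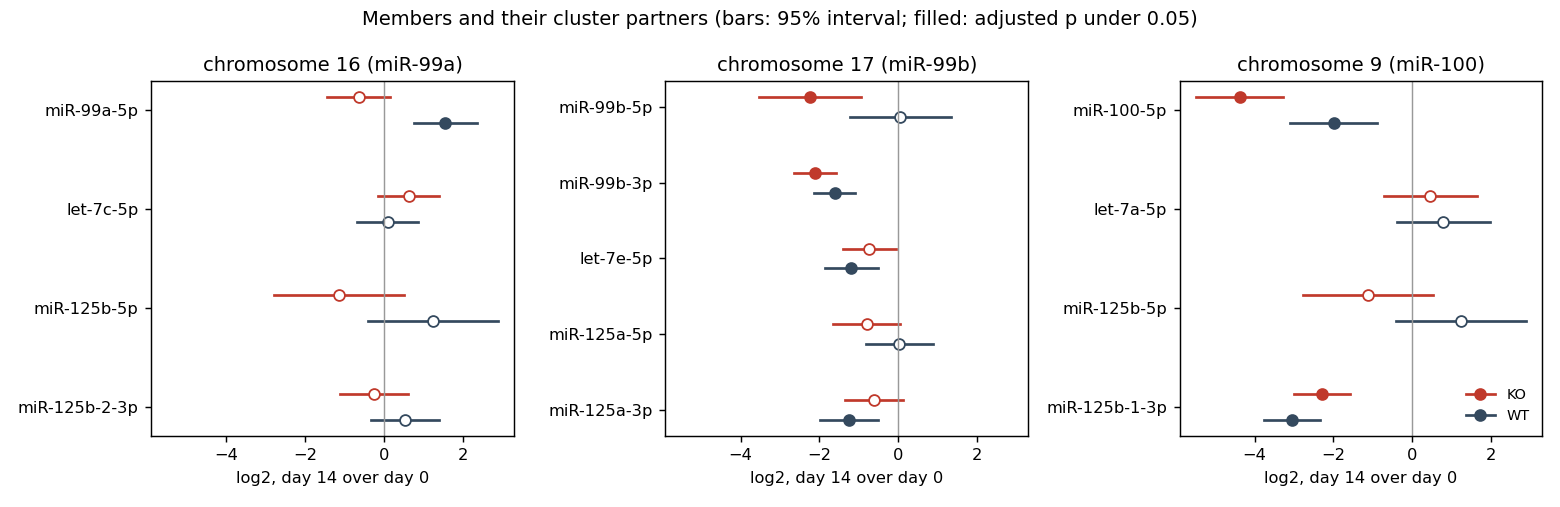
Log2 fold change from day 0 to day 14 with 95% intervals for members and their cluster partners, by cluster (KO red, WT dark blue; filled points have an adjusted p under 0.05). miR-100-5p and miR-125b-1-3p are filled in both genotypes on chromosome 9, while the chromosome 16 partners of miR-99a-5p are unfilled in both.

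The shapes of the profiles over the 8 group means divided the members. Pearson's r of the log2 values was 0.95 between miR-99b-3p and miR-100-5p, 0.88 between miR-99b-5p and miR-100-5p, and 0.82 between miR-99a-5p and miR-10a-5p. It was -0.07 between miR-99a-5p and miR-100-5p, and -0.35 between miR-99a-5p and miR-99b-3p. Among 271 other small RNAs the profiles most like miR-99a-5p were miR-125b-5p (r = 0.94), miR-425-3p (0.89) and miR-125b-2-3p (0.88). miR-125b-2-3p is encoded in the miR-99a cluster, while miR-125b-5p is encoded in that cluster and in the miR-100 cluster. How its reads were counted over the loci is not stated in any source used here. For miR-99b-5p the most alike profiles were miR-200b-3p (r = 0.99), miR-27b-3p (0.92) and miR-182-5p (0.92). For miR-99b-3p they were miR-532-5p (r = 0.98), miR-181b-5p (0.98) and miR-15b-5p (0.96), and for miR-100-5p miR-221-3p (r = 0.99), miR-15b-5p (0.98) and miR-140-3p (0.97). For miR-10a-5p they were miR-125b-5p (r = 0.93), miR-99a-5p (0.82) and miR-125b-2-3p (0.78). For miR-10a-3p they were miR-125b-5p (r = 0.81), miR-429-3p (0.76) and the small nucleolar RNA Gm25894 (0.75). These are descriptions over 8 points that share libraries and day shifts.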

How the data were processed

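Small RNA was measured in 16 libraries. Per the labels' protocols, RNA was purified with an RNeasy kit and libraries were made with a TruSeq RNA v2 kit. Per the submitters' processing notes, the genome was mm10 and DESeq2 was used, with no version; the aligner, annotation and counter are not stated in any source used here. The header of the deposited table speaks of counts of reads, yet its values are a normalised signal that the authors made by dividing the reads of a library by 1 size factor, for each day separately. The authors' deposited table of KO over WT holds log2 fold changes and an adjusted p-value per day, per the file headers.

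Of 1269 rows, 5 predicted rows with the values of a named miRNA were left out. Each value was read as a whole number of reads times the worth of 1 read in its library (tolerance 0.0055); at days 7 and 14 low rows are blank and the step is less certain, so edgeR 4.0.16 and DESeq2 1.42.0 were run on days 0 and 4 only. Without molecular identifiers, PCR copies of a molecule count as separate reads, so counting error is a lower limit of the spread. Days were joined by a log2 shift (0.25, 0.18, -0.42 and -0.05 at days 0, 4, 7 and 14) from 287 rows. limma 3.58.1 in R 4.3.3 was fitted with a variance trend on log2(value + 1), for rows in which 2 or more of the 4 libraries of each day compared reached a deposited value of 10. A fold change is on that scale, and understates the change of low rows. Two-sided p-values were adjusted by Benjamini-Hochberg across the rows tested in a comparison. The test was also tried on simulated data.

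Replicate differences correlated at r = 0.30 to 0.47 within KO (6 pairs of days), 0.11 to 0.27 within WT (6 pairs) and -0.25 to 0.17 between genotypes (16 pairs), over 272 rows. By this check of the data replicate numbers appeared to pair days within a genotype, more weakly in WT. The labels do not say whether a number marks the same mouse or culture batch. The main fit has no block and treats the 16 libraries as independent, also across days, and a blocked value is given where it changes a call. For changes over days and the interaction the block was fitted within genotype. For KO over WT it was a single term for replicate number shared by KO and WT. A block within genotype was not run for KO over WT. The members, lists, tests and alternatives were chosen with earlier results of these data known. Named small RNAs are the 7 members, their listed cluster partners, and the 3 rows with the highest Pearson r to each member over group means. Figures were drawn with matplotlib 3.10.9.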

Additional observations from a re-analysis of the deposited data

How the results depend on the processing

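Counts of members that passed changed under these settings. With values scaled to library totals, 1 member passed from day 0 to day 4 in WT cultures. The number of members also changed from day 0 to day 14 in KO cultures. It is left out because the share of all small RNAs under library totals is not given there. That scaling moved the median change of all small RNAs to -0.53 and -0.35 in these comparisons. In the main fit 2.56% and 28.7% of all small RNAs passed in them. With totals without miR-92b-3p, with factors from miRNA rows and in DESeq2, 1 member passed from day 0 to day 4 in KO cultures. With only the libraries compared, 0 passed there, 0 from day 0 to day 7 in WT cultures and 3 at day 14 for KO over WT; edgeR gave 0 from day 0 to day 4 in KO cultures. With the replicate block, 2 passed from day 0 to day 4 in WT cultures and 3 in the interaction at day 14. Apart from these and the blocked values given with the results, the block changed no call of a member. For KO over WT that block was shared by the genotypes, and a block within genotype was not run.

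Leaving out 1 library changed which members passed for KO over WT at day 0. It also did so for days 4, 7 and 14 over day 0 in WT cultures. The same held for days 4 and 14 over day 0 in KO cultures and for the interaction at days 7 and 14. Without WT replicate 2 of day 0 more members passed for KO over WT at day 0 and for each later day in WT cultures. More also passed then for the interaction at days 7 and 14. Such a fit has 1 library in a group, so the number of members that passed is not given.

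Over all small RNAs, the number passing from day 0 to day 14 in WT cultures was 39, and 135 under library totals, 62 with the block and 12 with only the libraries compared. At day 7 in WT cultures it was 22, and 113, 43 and 8 in the same settings; at day 4 it was 8, and 21, 15 and 3, with 5 in edgeR and 5 in DESeq2. In KO cultures it was 30 at day 7, and 55, 49 and 14; at day 4 it was 11, and 17 with the block, 7 with miRNA factors, 2 with only the libraries compared and 3 in edgeR. For KO over WT at day 14 it was 11, and 22 under totals and 45 with only the libraries compared; averaged over days it was 7, and 11 under totals. At day 7 it was 2, and 0 under library totals, totals without miR-92b-3p, miRNA factors and only the libraries compared; at day 4 it was 1, and 0 in edgeR and with only the libraries compared, and at day 0 it was 0, and 1 without a filter. For the interaction at day 14 it was 0, and 14 under totals, 2 under totals without miR-92b-3p and 14 with the block. The causes of these changes were not tested. The count tests were not run for days 7 and 14, where the recovered reads are less certain.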
